A study of Homo sapiens with 9 samples.

Results

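The 40 genes described here encode the core machinery of autophagy, 4 of its cargo receptors, the transcription factors TFEB and TFE3, and 5 proteins of the lysosome. They are a list of symbols named by these functions, looked up among the 58676 genes of the deposited count table. Of the 40, 39 passed the filter on low counts and were tested among 16239 genes. RNA was sequenced from HaCaT cells, a spontaneously immortalised line of human keratinocytes. The treated cultures received 250 nM CDDO-Me or 10 µM PRL-295, the control cultures received 1% DMSO, and all were held for 14 h, with 3 libraries per group. CDDO-Me, or bardoxolone methyl, is an electrophilic triterpenoid known to activate NRF2, the transcription factor of the antioxidant response. For PRL-295 the labels give a code name and no structure, and the title of the series is about activators of NRF2 that are not electrophiles. A single cell line stands for keratinocytes in all 3 groups. The labels do not say whether the compound cultures held DMSO. Nor do they tie the 3 libraries of a group to separate cultures, so p-values measure only the spread between these samples, which may be technical.

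Autophagy encloses a portion of cytoplasm in a double membrane, the autophagosome, and delivers it to the lysosome for digestion. A kinase complex around ULK1 starts the process, a lipid kinase complex around PIK3C3 marks the membrane, ATG2 and ATG9 proteins supply lipid, and ubiquitin-like conjugation attaches proteins of the ATG8 family, where cargo receptors bind. TFEB and TFE3 are known to drive genes of autophagy and lysosomes. In the epidermis the pathway is known for its part in keratinocyte differentiation and in the removal of organelles from cornifying cells.

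Library totals ran from 23383800 to 32942156 counted reads. The library CDDO-Me 1 stood apart in detecting the fewest genes, 14543 with at least 1 count, against 17821 to 23271 in the other libraries. Libraries also differed in how their values followed the GC content of genes. Over 12848 genes above 1 CPM (read counts scaled to library size), the Spearman correlation between GC content and a library's deviation from the mean was 0.0378, -0.7205 and -0.2884 in CDDO-Me libraries 1 to 3, -0.5708, 0.2735 and -0.2061 in PRL-295 libraries 1 to 3, and 0.4682, 0.4342 and 0.409 in DMSO libraries 1 to 3. Every DMSO library thus had a more positive GC trend than every compound library, so this trend and the treatment cannot be told apart by the design. All 6 keratinocyte markers were present in all libraries, with a summed level of 16200 to 18550 CPM with CDDO-Me, 10500 to 11170 CPM with PRL-295 and 13120 to 14040 CPM with DMSO. Summed markers of fibroblasts, melanocytes, immune cells and endothelial cells were at most 13.06 CPM in any library, and DCN, LUM, TYR and PECAM1 had 0 counts in all 9. Both compounds raised all 5 known NRF2 targets examined, among them NQO1, a quinone reductase, at 739 ± 176 CPM with CDDO-Me, 1090 ± 155 CPM with PRL-295 and 371 ± 41.8 CPM with DMSO (SD, n = 3 each). The adjusted p of NQO1 for CDDO-Me was 0.00771, and 0.0503 without DMSO 2. GCLM, a subunit gene of the enzyme that starts glutathione synthesis, had an adjusted p of 0.0169 for PRL-295, and of 0.0722 to 0.11 without PRL-295 1, PRL-295 3 or any DMSO library.

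Levels are compared between genes as the deposited FPKM, which divides counts by gene length. With DMSO, the highest levels were those of the lysosomal genes CTSB at 165 ± 7.77 FPKM, LAMP1 at 113 ± 10.9 FPKM and CTSD at 69.4 ± 4.72 FPKM (SD, n = 3). CTSL at 30.2 ± 7.86 FPKM, OPTN at 24.4 ± 2.40 FPKM and TFE3 at 23.8 ± 1.80 FPKM followed, and these 3 neighbours did not differ beyond their spread. LAMP2, also lysosomal, was lower at 14.5 ± 0.364 FPKM. Most genes of the core machinery lay between 0.822 FPKM for ATG10 and 16.1 FPKM for ATG4D. Within the ATG8 family, GABARAPL1 stood at 13.8 ± 1.26 FPKM, GABARAPL2 at 12.03 ± 2.40 FPKM and MAP1LC3B at 11.1 ± 1.49 FPKM with DMSO, within their spread of each other, while MAP1LC3A was at 0.543 FPKM. With CDDO-Me, MAP1LC3B had the highest mean of the family, 18.4 FPKM, and with PRL-295 the highest were GABARAPL1 at 18.7 FPKM and MAP1LC3B at 18.4 FPKM.

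**Figure D1:**
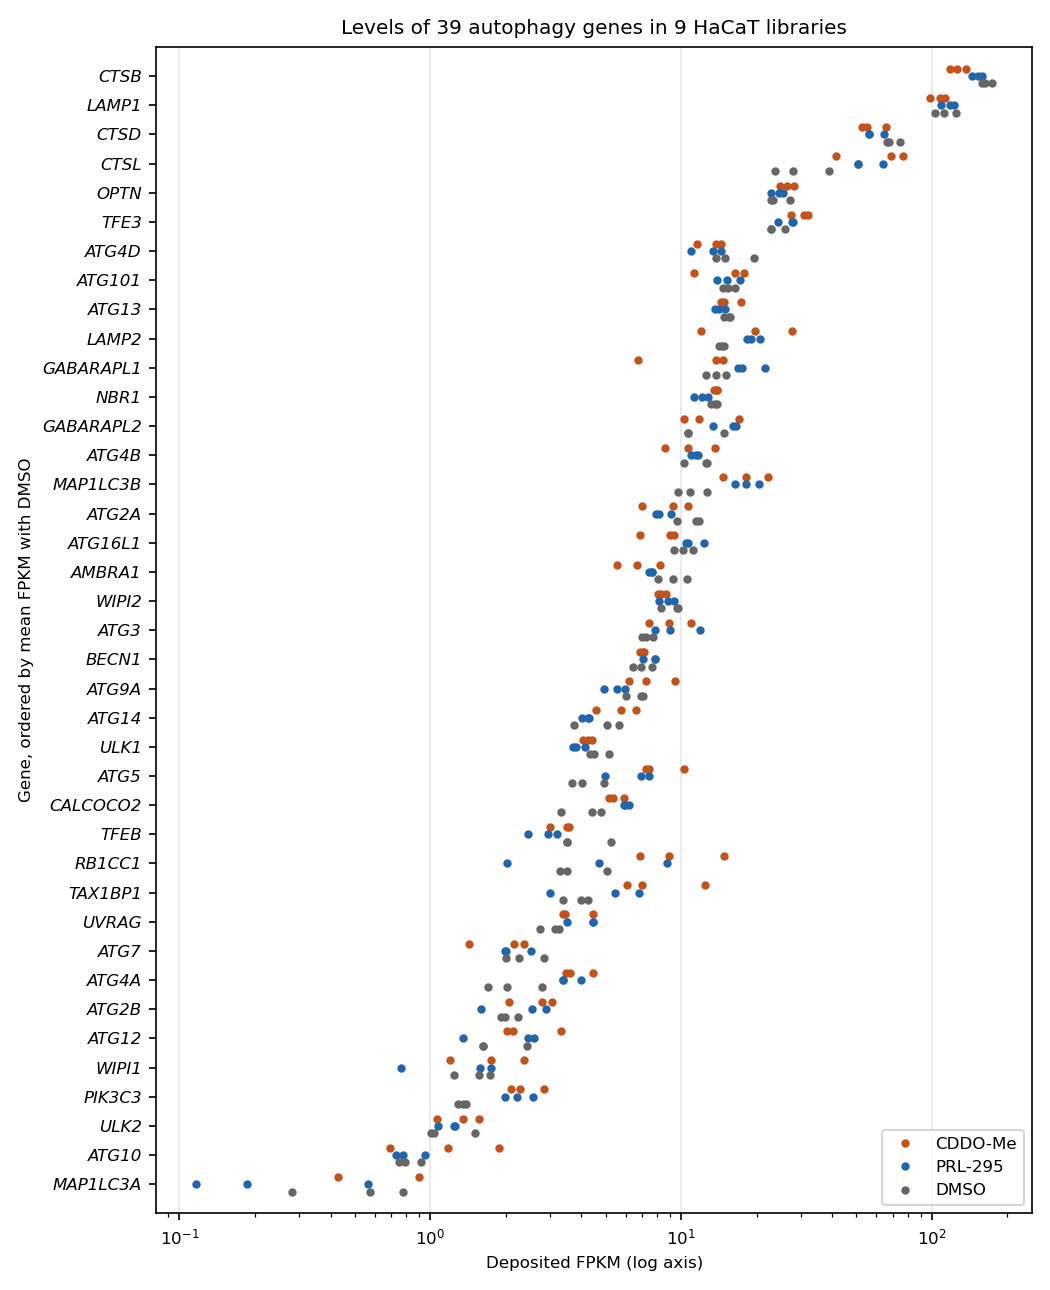
Deposited FPKM of the 39 tested autophagy genes (log axis) in each of the 9 libraries, with genes ordered by their mean with DMSO and 1 point per library. CTSB, LAMP1 and CTSD stand highest and MAP1LC3A lowest; MAP1LC3A in CDDO-Me 1 is listed at 0 and has no point.

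GABARAP, the gene that names the GABARAP branch of the ATG8 family, was the member that was not tested. It had 24 counts over the 9 libraries, with 0, 5 and 1 in CDDO-Me libraries 1 to 3, 4, 3 and 0 in PRL-295 libraries and 0, 6 and 5 in DMSO libraries. In the annotation, 55.7% of its exonic bases are shared with another gene on either strand and 30.5% on its own strand, with the readthrough gene AC120057.2, which had 0 counts. The strand setting of the authors' counting is not given in the sources used here, so this level is uncertain, and no fold is given.

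The comparison of CDDO-Me with DMSO asks which genes the electrophilic activator changed. Of the 39 tested genes, 5 rose and 1 fell. Those that rose were PIK3C3, the lipid kinase that makes the phosphoinositide of the forming autophagosome, ATG5, a core conjugation protein, MAP1LC3B, the gene of LC3B, TAX1BP1, a cargo receptor, and CTSL, the protease cathepsin L. Their folds were 1.79, 1.97, 1.65, 2.18 and 2.05, in that order, and CTSB, the protease cathepsin B, fell to 0.7665 of its DMSO level. The 6 calls are 15.4% of the tested members, beside 9.22% of all 16239 tested genes (4.65% higher and 4.57% lower). The median log2 fold change of the members was 0.11, beside 0.0078 over all tested genes, and 23 of 39 were above 0. Groups did not overlap for 12 of 39 members, or 30.8%, a share near the 31.8% of all tested genes. In 10 of them CDDO-Me lay above DMSO and in 2 below, beside 15.5% and 16.3% of all tested genes. Groups were compared for overlap on values as counted, with the GC trend of the libraries left in. In bulk RNA, fewer cells of a type and less RNA per cell cannot be told apart.

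All adjusted p-values come from edgeR's quasi-likelihood test with Benjamini-Hochberg adjustment over all tested genes, unless another tool is named. These calls depended on single libraries. None of the 6 was past the threshold of 0.05 without CDDO-Me 2, without DMSO 1 or without DMSO 2, when the count over all genes was 629, 477 and 400, beside 1497 with all libraries. Their adjusted p then ran from 0.0537 for PIK3C3 without DMSO 2 to 0.164 for TAX1BP1 without DMSO 2. Without CDDO-Me 3, PRL-295 3 or DMSO 3 there were 3 calls each, beside 946, 779 and 628 over all genes, and without CDDO-Me 1 there were 10, beside 2803. The sign of each of the 6 held with every library left out.

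**Figure D2:**
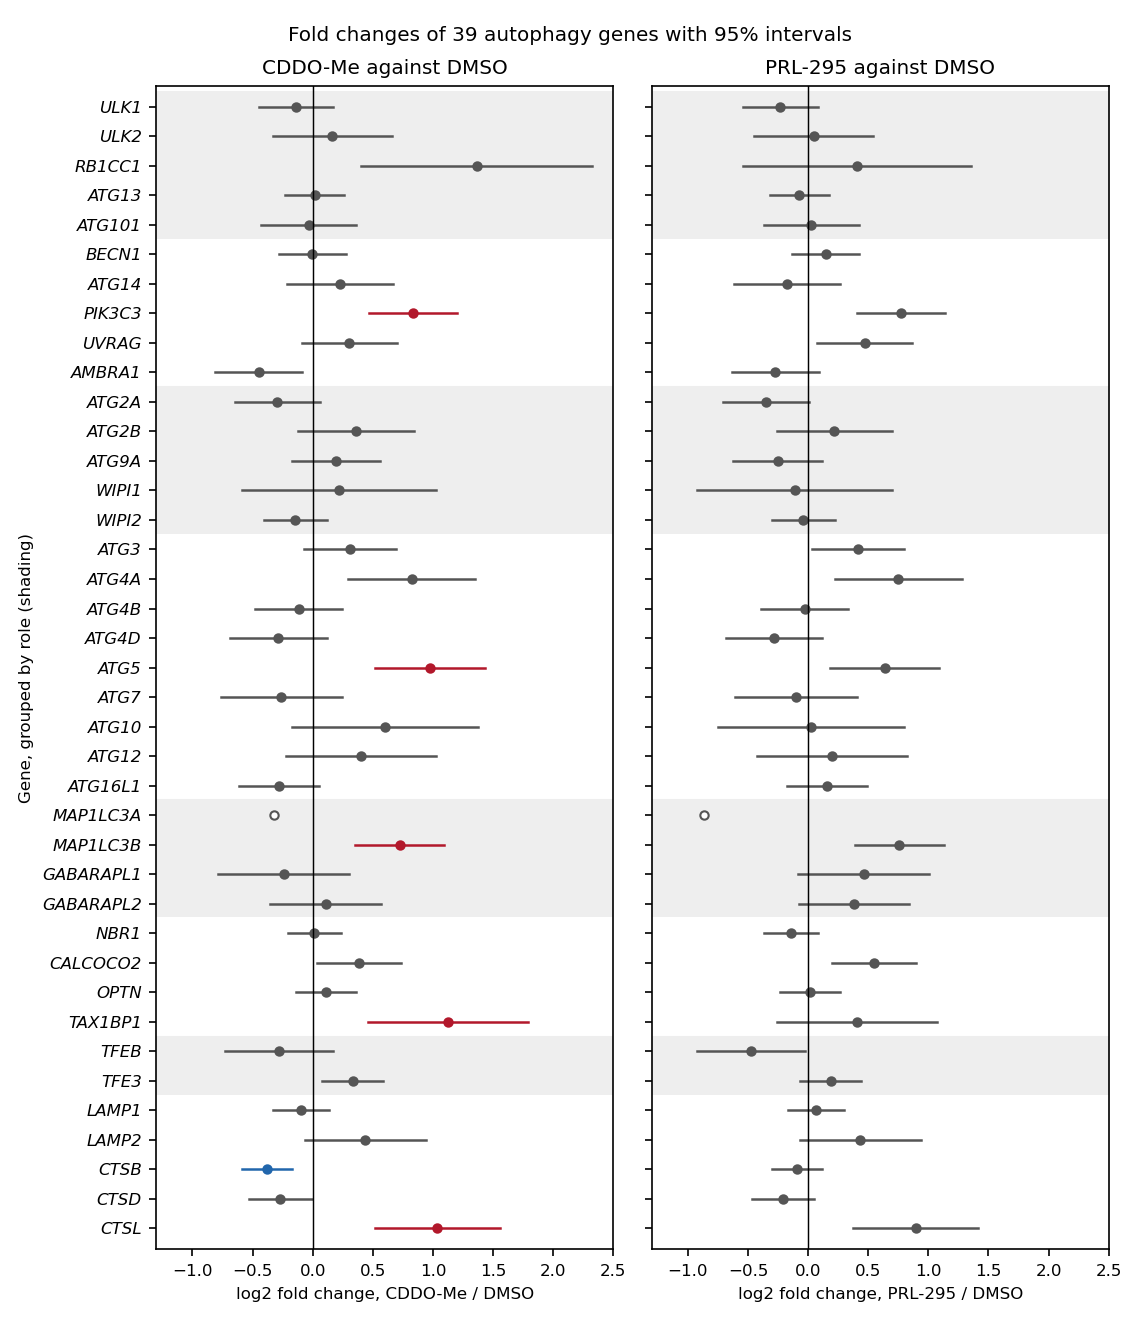
Log2 fold changes of the 39 tested genes with 95% intervals, for CDDO-Me against DMSO (left) and PRL-295 against DMSO (right), with genes grouped by role. Red marks genes higher and blue genes lower at an adjusted p under 0.05, which are 5 and 1 on the left and none on the right; the open circle is MAP1LC3A, whose interval runs off the axis.

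Among genes of the initiation kinase complex none passed the test for CDDO-Me or PRL-295. RB1CC1, which encodes the scaffold protein FIP200 (ENSG00000023287; chromosome 8, 52622456 to 52745843, hg38), was at 67.98, 111 and 51.6 CPM in CDDO-Me libraries 1 to 3, at 66.6, 15.85 and 36.4 CPM in PRL-295 libraries and at 37.97, 25.3 and 26.5 CPM in DMSO libraries. Its compound libraries were widely spread, from the lowest value of all 9 libraries in PRL-295 2 to the highest in CDDO-Me 2. As counted, its log2 fold change for CDDO-Me was the largest of any member, 1.36 (95% interval 0.40 to 2.32, adjusted p = 0.0744), and CDDO-Me libraries lay above all DMSO libraries. The kinase gene ULK1 had 33.4, 30.4 and 32.05 CPM with CDDO-Me, 28.15, 32.5 and 29.4 CPM with PRL-295 and 38.6, 33.25 and 33.8 CPM with DMSO, and every PRL-295 library lay below every DMSO library (log2 fold change -0.23, adjusted p = 0.545). ULK2, the related kinase, and ATG13 and ATG101, the regulatory subunits, had overlapping groups in all 3 comparisons, with log2 fold changes against DMSO from -0.074 to 0.16.

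The class III PI3-kinase complex makes PI3P on the forming membrane. Its catalytic subunit PIK3C3, or VPS34 (ENSG00000078142; chromosome 18, 41955206 to 42087830), was at 31.8, 42.8 and 34.2 CPM in CDDO-Me libraries 1 to 3, at 38.9, 34.75 and 30.6 CPM in PRL-295 libraries and at 19.25, 21.4 and 20.3 CPM in DMSO libraries. All 6 compound libraries lay above all 3 DMSO libraries. The log2 fold change was 0.84 ± 0.166 (SE) for CDDO-Me, with an adjusted p of 0.0127. For PRL-295 it was 0.775, with an adjusted p of 0.0691. UVRAG, which forms the complex's endosomal version, also had both compound groups above DMSO without passing the test, with 21.9, 28.02 and 21.3 CPM with CDDO-Me, 28.15, 29.2 and 22.55 CPM with PRL-295 and 17.1, 20.1 and 20.4 CPM with DMSO (log2 fold changes 0.30 and 0.47, adjusted p = 0.314 and 0.297 for CDDO-Me and PRL-295 against DMSO). ATG14, which targets the complex to autophagosomes, had 33.3, 28.9 and 22.9 CPM with CDDO-Me, 20.4, 22.2 and 21.9 CPM with PRL-295 and 25.1, 29.01 and 18.65 CPM with DMSO, and its PRL-295 libraries lay below its CDDO-Me libraries. AMBRA1, a regulator of the complex, had 63.25, 42.2 and 50.85 CPM with CDDO-Me, 57.0, 60.6 and 59.2 CPM with PRL-295 and 70.1, 82.1 and 61.4 CPM with DMSO. Its PRL-295 libraries lay below its DMSO libraries, and it did not pass the test at -0.27 for PRL-295 (adjusted p = 0.54) or -0.45 for CDDO-Me (adjusted p = 0.111). BECN1, the gene of the scaffold Beclin 1, had overlapping groups, with a log2 fold change of -0.0031 for CDDO-Me (95% interval -0.28 to 0.28) and 0.15 for PRL-295 (95% interval -0.13 to 0.43).

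None of the 5 genes of membrane supply and PI3P binding passed the test in any comparison. ATG2A, a lipid transfer protein gene, had 83.4, 54.3 and 72.02 CPM with CDDO-Me, 63.85, 64.4 and 72.97 CPM with PRL-295 and 91.1, 91.1 and 74.8 CPM with DMSO, so that its PRL-295 libraries lay below its DMSO libraries (log2 fold change -0.35, adjusted p = 0.391). ATG9A, the gene of the lipid scramblase on ATG9 vesicles, had 76.7, 49.9 and 58.6 CPM with CDDO-Me, 44.9, 41.4 and 49.5 CPM with PRL-295 and 55.3, 58.1 and 48.5 CPM with DMSO. Its PRL-295 libraries lay below its CDDO-Me libraries, and the direct log2 fold change was -0.45 (adjusted p = 0.203). In the annotation used for overlaps, ATG9A shares 38.8% of its exonic bases with another gene on its strand, so its counts are uncertain. Its coordinates there differ from those of the count table, so the share is uncertain too. ATG2B and the PI3P-binding proteins' genes WIPI1 and WIPI2 had overlapping groups, with log2 fold changes against DMSO from -0.14 for WIPI2 to 0.36 for ATG2B, both with CDDO-Me. For PRL-295 over CDDO-Me they ran from -0.33 for WIPI1 to 0.10 for WIPI2.

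Of the 9 genes of ATG8 and ATG12 conjugation, 1 rose with CDDO-Me. ATG5, whose protein is joined to ATG12 to form part of the ligase for ATG8 proteins (ENSG00000057663; chromosome 6, 106184476 to 106325820), was at 29.4, 40.1 and 28.2 CPM in CDDO-Me libraries 1 to 3, at 29.3, 20.3 and 27.7 CPM in PRL-295 libraries and at 15.7, 14.7 and 19.3 CPM in DMSO libraries. Both compound groups lay above DMSO, and the highest value was in CDDO-Me 2. The log2 fold change was 0.98 ± 0.208 (SE) for CDDO-Me (adjusted p = 0.0166) and 0.64 for PRL-295 (adjusted p = 0.222). ATG4A, a protease that trims ATG8 proteins, had lower counts, with 10.55, 12.9 and 10.03 CPM with CDDO-Me, 9.89, 12.04 and 10.00 CPM with PRL-295 and 5.795, 5.04 and 8.12 CPM with DMSO. Its compound libraries also lay above DMSO without passing the test, at 0.82 for CDDO-Me (adjusted p = 0.055) and 0.75 for PRL-295 (adjusted p = 0.21). ATG3, the E2-like enzyme that hands ATG8 to lipid, had 45.3, 66.2 and 54.1 CPM with CDDO-Me, 72.3, 49.65 and 56.1 CPM with PRL-295 and 46.15, 43.3 and 43.99 CPM with DMSO, with PRL-295 above DMSO (log2 fold change 0.42, adjusted p = 0.348). ATG16L1, which places the ligase on the membrane, had 41.5, 56.1 and 53.9 CPM with CDDO-Me, 63.2, 77.35 and 65.3 CPM with PRL-295 and 55.4, 62.2 and 66.8 CPM with DMSO, and its PRL-295 libraries lay above its CDDO-Me libraries (log2 fold change 0.44, adjusted p = 0.168). The proteases ATG4B and ATG4D, the E1-like enzyme ATG7, the E2-like enzyme ATG10 and the ubiquitin-like ATG12 had overlapping groups in all 3 comparisons, with log2 fold changes against DMSO from -0.29 for ATG4D to 0.60 for ATG10, both with CDDO-Me. For PRL-295 over CDDO-Me they ran from -0.57 for ATG10 to 0.16 for ATG7.

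In the ATG8 family, whose proteins coat the autophagosome, MAP1LC3B rose with CDDO-Me. This gene of LC3B, the usual marker protein of autophagosomes (ENSG00000140941; chromosome 16, 87383995 to 87404779), was at 78.1, 117 and 95.6 CPM in CDDO-Me libraries 1 to 3, at 96.2, 112 and 88.6 CPM in PRL-295 libraries and at 50.65, 58.3 and 66.7 CPM in DMSO libraries. All compound libraries lay above all DMSO libraries, and the fold changes of the compounds were close to each other. The log2 fold change was 0.725 ± 0.168 (SE) for CDDO-Me (adjusted p = 0.0245) and 0.76 ± 0.168 (SE) for PRL-295 (adjusted p = 0.0807). Its near copy MAP1LC3B2 had 336 counts over 9 libraries, against 21159 for MAP1LC3B. GABARAPL1, of the GABARAP branch, had 27.5, 59.6 and 55.8 CPM with CDDO-Me, 71.2, 91.45 and 69.97 CPM with PRL-295 and 50.6, 56.9 and 61.3 CPM with DMSO. Here PRL-295 lay above both other groups, with a log2 fold change of 0.46 against DMSO (adjusted p = 0.475) and of 0.70 against CDDO-Me (adjusted p = 0.176), and CDDO-Me 1 had the lowest value. GABARAPL2 had overlapping groups, with log2 fold changes of 0.11 for CDDO-Me and 0.38 for PRL-295. MAP1LC3A had 0 to 45 counts per library, too few for a usable interval.

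TAX1BP1 alone of the 4 cargo receptors rose. This receptor for ubiquitin-marked cargo (ENSG00000106052; chromosome 7, 27739331 to 27844564) was at 55.6, 112.5 and 63.1 CPM in CDDO-Me libraries 1 to 3, at 61.96, 28.4 and 50.5 CPM in PRL-295 libraries and at 36.02, 31.4 and 38.6 CPM in DMSO libraries. CDDO-Me 2 stood far above the rest, and PRL-295 2 was below every DMSO library. The log2 fold change for CDDO-Me was 1.12 ± 0.304 (SE), with an adjusted p of 0.0444, and for PRL-295 it was 0.41, with an adjusted p of 0.64. CALCOCO2, the gene of NDP52, a receptor for invading bacteria and damaged mitochondria, had 42.96, 48.8 and 44.2 CPM with CDDO-Me, 51.4, 51.25 and 49.9 CPM with PRL-295 and 27.15, 40.6 and 36.5 CPM with DMSO. Its groups were in the order PRL-295, CDDO-Me, DMSO from high to low with no overlap, at 0.55 for PRL-295 (adjusted p = 0.168) and 0.38 for CDDO-Me (adjusted p = 0.156). NBR1, a receptor for protein aggregates, had 116, 116 and 112 CPM with CDDO-Me, 94.9, 105 and 109 CPM with PRL-295 and 112, 119 and 110.1 CPM with DMSO, with PRL-295 below both other groups (log2 fold change -0.14 against DMSO, adjusted p = 0.613). OPTN, the gene of the mitophagy receptor optineurin, had overlapping groups, and its log2 fold changes were 0.11 for CDDO-Me (95% interval -0.14 to 0.36) and 0.015 for PRL-295 (95% interval -0.24 to 0.27).

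**Figure D3:**
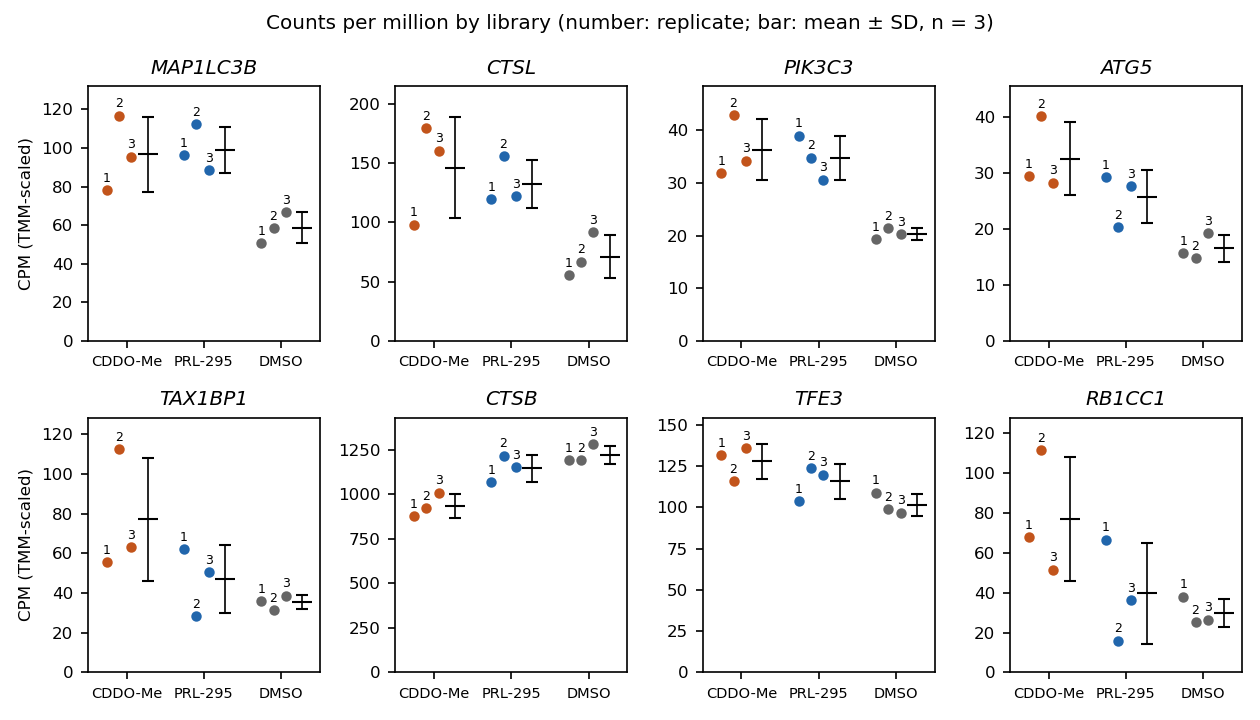
CPM (TMM-scaled) in each library, numbered by replicate, for the 6 members past the threshold with CDDO-Me and for TFE3 and RB1CC1; bars are mean ± SD, n = 3. For MAP1LC3B, CTSL, PIK3C3 and ATG5 all compound libraries lie above all DMSO libraries, while TAX1BP1 and RB1CC1 are widely spread within the compound groups.

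The transcription factor genes did not pass the test. TFE3 (ENSG00000068323; chromosome X, 49028726 to 49043486) was at 132, 116 and 136 CPM in CDDO-Me libraries 1 to 3, at 104, 124 and 119.8 CPM in PRL-295 libraries and at 109, 98.8 and 96.8 CPM in DMSO libraries. Every CDDO-Me library lay above every DMSO library (log2 fold change 0.33, 95% interval 0.078 to 0.59, adjusted p = 0.0954). TFEB, its close relative, had 19.7, 16.7 and 20.03 CPM with CDDO-Me, 13.8, 18.7 and 16.8 CPM with PRL-295 and 29.05, 20.1 and 19.6 CPM with DMSO, with every PRL-295 library below every DMSO library (log2 fold change -0.48, adjusted p = 0.358).

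As counted, the lysosomal genes moved in both directions with CDDO-Me. CTSL (ENSG00000135047; chromosome 9, 87725519 to 87731393) was at 97.9, 179 and 160.4 CPM in CDDO-Me libraries 1 to 3, at 119, 156 and 122 CPM in PRL-295 libraries and at 55.15, 66.8 and 91.4 CPM in DMSO libraries. All compound libraries lay above all DMSO libraries, with CDDO-Me 1 the lowest of the compound libraries. Its log2 fold change was 1.04 ± 0.237 (SE) for CDDO-Me (adjusted p = 0.0232) and 0.90 ± 0.236 (SE) for PRL-295 (adjusted p = 0.132). CTSB (ENSG00000164733; chromosome 8, 11842524 to 11869448), the most abundant member, was at 877, 921.5 and 1009 CPM in CDDO-Me libraries 1 to 3, at 1068, 1217 and 1151 CPM in PRL-295 libraries and at 1190, 1193 and 1280 CPM in DMSO libraries. All CDDO-Me libraries lay below all other libraries. The log2 fold change was -0.38 ± 0.0945 (SE) for CDDO-Me (adjusted p = 0.0312) and -0.092 for PRL-295 (adjusted p = 0.778). CTSD, the gene of the aspartic protease cathepsin D, had 196, 156 and 164 CPM with CDDO-Me, 168, 198.5 and 171 CPM with PRL-295 and 220.4, 200.1 and 201 CPM with DMSO. Both compound groups lay below DMSO, at -0.27 for CDDO-Me (adjusted p = 0.182) and -0.21 for PRL-295 (adjusted p = 0.509). In the annotation used for overlaps, CTSD shares 41.7% of its exonic bases with another gene on its strand. Its coordinates there also differ from those of the count table. LAMP2, which encodes a lysosomal membrane protein needed for fusion with autophagosomes, had 65.9, 151 and 107.5 CPM with CDDO-Me, 114, 108 and 103 CPM with PRL-295 and 79.02, 83.2 and 77.5 CPM with DMSO. Its PRL-295 libraries lay above its DMSO libraries, while CDDO-Me libraries lay on both sides of them (log2 fold changes 0.44 for CDDO-Me and 0.43 for PRL-295, adjusted p = 0.254 and 0.468). LAMP1, the other abundant lysosomal membrane protein gene, had overlapping groups, at -0.096 for CDDO-Me (95% interval -0.33 to 0.14) and 0.064 for PRL-295 (95% interval -0.17 to 0.30).

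The comparison of PRL-295 with DMSO asks the same of the second activator. None of the 39 tested genes passed the threshold, beside 0.684% of all tested genes, or 111 of 16239. At an unadjusted p under 0.05 there were 9 members, or 23.1%, beside 12.9% of all tested genes. DESeq2 called 3, namely PIK3C3, MAP1LC3B and CTSL, all higher with PRL-295, among 539 calls. It was given 29198 genes, and its own filter can leave some of them without an adjusted p. The median log2 fold change of the members was 0.046, beside -0.012 over all tested genes. Groups did not overlap for 16 members, 10 with PRL-295 above and 6 with it below. That is 41% of the tested members, beside 27.2% of all tested genes (13.5% above and 13.7% below). These overlaps too are of values as counted, with the GC trend of the libraries left in. Across the members, the log2 fold change for PRL-295 followed GC content at a Spearman correlation of -0.674, beside -0.404 across all tested genes. Both comparisons against DMSO share the same 3 DMSO libraries, so likeness between them is not independent.

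PRL-295 was also set directly against CDDO-Me, at doses that differ, 10 µM and 250 nM. None of the 39 genes passed the threshold, beside 1.59% of all tested genes, while 6 had an unadjusted p under 0.05, or 15.4%, beside 17.2% of all tested genes. DESeq2, given 29198 genes, called 0 of the members, among 897 calls. As counted, groups did not overlap for 7, or 17.9%, beside 24.6% of all tested genes, with PRL-295 above in 4 and below in 3 (14.4% and 10.2% of all). For the 6 genes called with CDDO-Me, the log2 fold changes of PRL-295 over CDDO-Me were -0.062 for PIK3C3 (95% interval -0.42 to 0.30), 0.033 for MAP1LC3B (95% interval -0.33 to 0.40) and -0.14 for CTSL (95% interval -0.65 to 0.38). They were -0.34 for ATG5 (95% interval -0.79 to 0.11), -0.72 for TAX1BP1 (95% interval -1.38 to -0.053, adjusted p = 0.257) and 0.29 for CTSB (95% interval 0.084 to 0.50, adjusted p = 0.15). For PIK3C3 and MAP1LC3B the intervals lie on both sides of 0, whereas those of TAX1BP1 and CTSB lie on one side of 0 without passing the test over all genes. The largest direct differences among the members were in RB1CC1 at -0.96 (adjusted p = 0.288), TAX1BP1 and GABARAPL1. That a gene was called for CDDO-Me and not for PRL-295 therefore does not show a difference between the compounds.

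The GC trend of the libraries moved with these fold changes. Across the 39 genes, the Spearman correlation between a gene's GC content and its log2 fold change was -0.689 for CDDO-Me and -0.674 for PRL-295, beside -0.468 and -0.404 across all tested genes. These correlations are over genes that share the same libraries, and genes are not independent replicates. PIK3C3 and ATG5 have 38.3% and 38.8% GC, MAP1LC3B and CTSL have 50.4% and 52.5%, and the median of the members was 48.5%. A trend on GC content and gene length was fitted in each library and removed. For CDDO-Me, MAP1LC3B was then at 0.84 on the log2 scale (adjusted p = 0.00559), CTSL at 1.24 (adjusted p = 0.00207) and TAX1BP1 at 1.08 (adjusted p = 0.0474). TFE3, at 59.8% GC, passed the test with 0.60 (adjusted p = 0.000827). PIK3C3 did not pass the test, at 0.21 (adjusted p = 0.634), and neither did ATG5 at 0.52 (adjusted p = 0.0605) or CTSB at -0.25 (adjusted p = 0.0994). RB1CC1, at 37.6% GC, stood at 0.75 (adjusted p = 0.114), below CTSL, TAX1BP1 and MAP1LC3B. CTSD, at 63.97% GC, stood at 0.037 (adjusted p = 0.855), and LAMP2, at 37.72% GC, at -0.15 (adjusted p = 0.705).

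For PRL-295 the same correction gave 3 calls, all higher, beside 1.51% of all tested genes. They were MAP1LC3B at 0.76 (adjusted p = 0.0316), CTSL at 0.88 (adjusted p = 0.044) and TFE3 at 0.37 (adjusted p = 0.0456). PIK3C3 stood at 0.73 without passing (adjusted p = 0.157). For PRL-295, TFE3 was past the threshold in this fit only, 1 of 21 alternatives. With the correction fitted over all tested genes, or with a block for replicate numbers, only MAP1LC3B and CTSL were called. With the trend removed, the correlation with GC content across the 39 genes was -0.0079 for CDDO-Me and -0.232 for PRL-295, and 7.89% of all tested genes were called for CDDO-Me. The trend differed between DMSO and both compounds, so a treatment's own change in low-GC genes and the removed trend cannot be told apart.

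**Figure D4:**
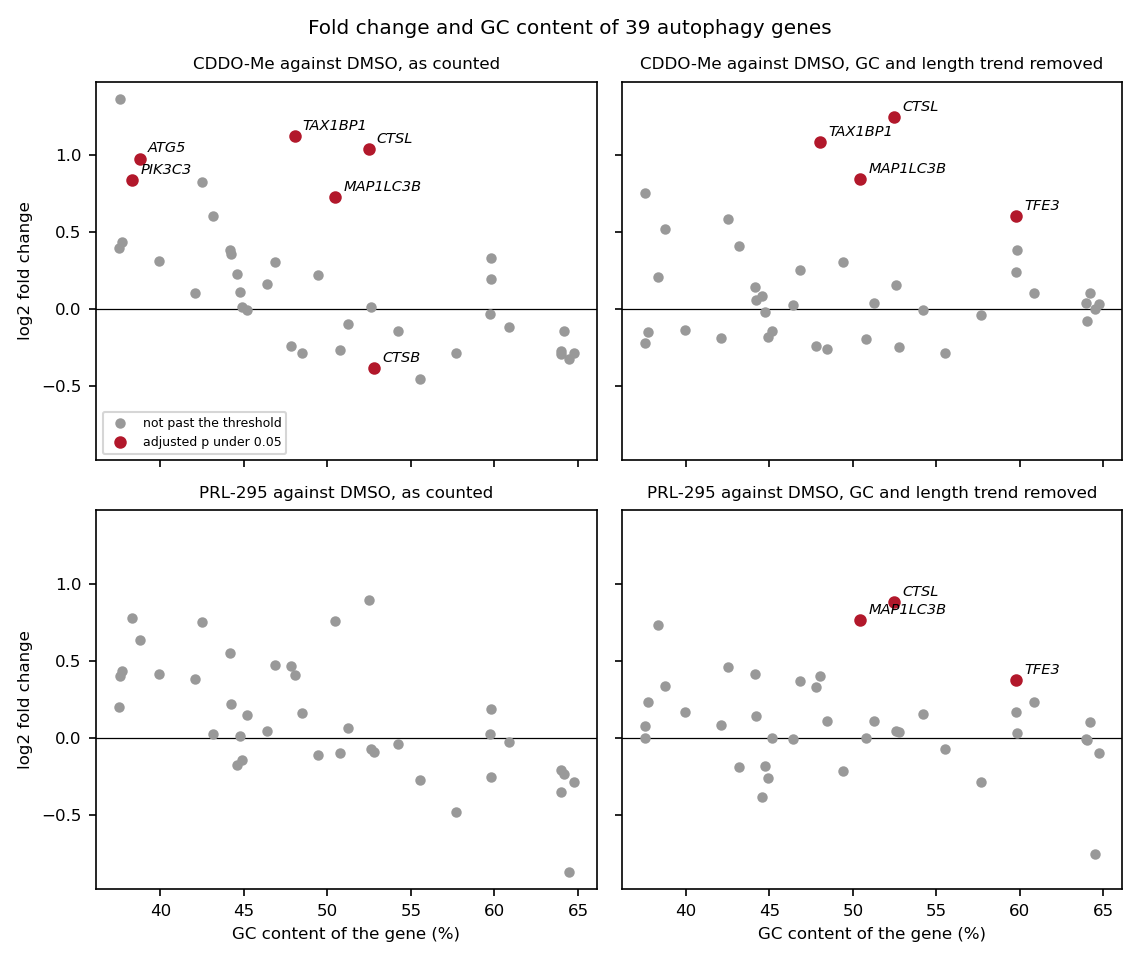
Log2 fold change of the 39 tested genes against the GC content of each gene, for CDDO-Me (top) and PRL-295 (bottom) against DMSO, as counted (left) and with each library's trend on GC content and gene length removed (right). The downward slope on the left is absent at the top right, and MAP1LC3B, CTSL and TFE3 stand among the named genes in both right panels.

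MAP1LC3B and CTSL were the members past the threshold for CDDO-Me with and without that correction and for PRL-295 with it, and both have a match to the core of the antioxidant response element, the sequence that NRF2 is known to bind, in the window from 250 bases before to 50 bases after the start site that RefSeq gives. In both genes that site lies inside the annotated interval printed above, not at its first base. The sequences are from RefSeq (GRCh38.p14), and capitals mark the match to TGACNNNGC on either strand, whose first base lies 46 bases before the start site in MAP1LC3B and 23 bases before it in CTSL.
MAP1LC3B, chr16:87392086-87392385, + strand: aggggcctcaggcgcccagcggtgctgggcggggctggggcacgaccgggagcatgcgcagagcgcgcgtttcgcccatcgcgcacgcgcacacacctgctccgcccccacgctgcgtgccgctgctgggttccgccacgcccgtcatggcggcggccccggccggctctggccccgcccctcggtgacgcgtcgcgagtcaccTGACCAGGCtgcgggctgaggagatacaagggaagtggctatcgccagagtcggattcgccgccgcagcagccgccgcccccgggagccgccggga
CTSL, chr9:87725869-87726168, + strand: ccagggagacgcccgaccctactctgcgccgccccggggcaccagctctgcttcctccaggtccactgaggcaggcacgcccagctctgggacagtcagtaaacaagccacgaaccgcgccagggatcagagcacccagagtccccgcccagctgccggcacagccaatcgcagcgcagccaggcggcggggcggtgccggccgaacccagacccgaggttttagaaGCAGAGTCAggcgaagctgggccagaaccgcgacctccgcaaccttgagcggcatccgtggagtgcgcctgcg

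Of 34 members with a promoter entry, 6 held this core, or 17.6%, beside 13.6% of 27305 promoters of the same length. Only the first entry of each gene was searched, for this and the other motifs. AMBRA1, WIPI2, ATG5, NBR1, OPTN, TAX1BP1 and TFEB have further entries, where a match would have been missed. The window searched for ATG5 lies inside its annotated interval. The other 4 were ATG101, CALCOCO2, LAMP1 and CTSD, none of which passed the test for either compound. PIK3C3, ATG5 and TAX1BP1, which rose with CDDO-Me, had no match in the window searched, nor did TFE3. CTSB had no promoter entry. Whether NRF2 acts on any of these genes was not tested. A match is a description of letters and not a bound site. CTSD has 2 matches, of which the one farther upstream is shown, and the other 3 genes have 1 each. They are shown within 16 bases on each side, for comparison with those of MAP1LC3B and CTSL.
ATG101, chr12:52069842-52069882, + strand: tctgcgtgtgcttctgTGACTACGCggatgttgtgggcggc
CALCOCO2, chr17:48830890-48830930, + strand: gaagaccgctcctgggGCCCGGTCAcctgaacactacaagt
LAMP1, chr13:113297024-113297064, + strand: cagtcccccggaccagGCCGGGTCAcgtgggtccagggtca
CTSD, chr11:1764098-1764138, - strand: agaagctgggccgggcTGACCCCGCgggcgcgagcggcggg

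The E-box CACGTG, the letters at the centre of the element that TFEB and TFE3 bind in lysosomal genes, was in 4 of 34 member promoters, or 11.8%, beside 7.43% of all. These were ATG14, ATG3, LAMP1 and CTSD. The longer palindrome TCACGTGA, which contains the E-box, was in 2 of 34, or 5.88%, beside 1.04% of all, and is shown in capitals with 16 bases on each side. LAMP1 has 2 matches to it, of which the one farther upstream is shown, and ATG3 has 1.
ATG3, chr3:112561935-112561974, - strand: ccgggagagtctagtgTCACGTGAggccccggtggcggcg
LAMP1, chr13:113297194-113297233, + strand: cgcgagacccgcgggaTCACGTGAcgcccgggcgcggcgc
Neither ATG3 nor LAMP1 passed the test for either compound. RB1CC1, UVRAG, ATG4D, MAP1LC3A, LAMP2 and CTSB had no promoter entry.

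Lists of neighbouring pathways were counted in the same fit, and the 9.22% and 0.684% of all tested genes called for CDDO-Me and PRL-295 stand beside each count. Of 33 other autophagy genes tested, 1 rose with CDDO-Me, SH3GLB1, the gene of the Beclin 1 partner endophilin B1 (adjusted p = 0.0174, log2 fold change 0.98). The median over the 33 was 0.060, beside 0.0078 over all tested genes. Of 17 further receptors, 1 rose and 2 fell. The mitophagy receptor BNIP3L rose, at 54.2 ± 7.31 CPM with CDDO-Me, 29.99 ± 4.95 CPM with PRL-295 and 31.3 ± 2.32 CPM with DMSO (adjusted p = 0.0158). TEX264, a receptor for endoplasmic reticulum, and PHB2, a receptor of the inner mitochondrial membrane, fell by 0.63 and 0.59 on the log2 scale (adjusted p = 0.0455 and 0.0134). Of 29 genes of mTORC1, the kinase complex that restrains autophagy, and AMPK, the kinase that promotes it, 2 rose and 3 fell with CDDO-Me. The AMPK subunit genes PRKAA1 and PRKAB2 rose by 1.00 and 0.75 (adjusted p = 0.043 and 0.0285). DDIT4, an inhibitor of mTORC1, fell to 0.533 of its DMSO level (adjusted p = 0.00801), and MLST8, a subunit of mTOR complexes, to 0.671 (adjusted p = 0.0315). LAMTOR1, a subunit of the complex that holds mTORC1 at the lysosome, was the remaining call, at a log2 fold change of -0.55 (adjusted p = 0.0383).

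Among 38 other lysosomal hydrolases, 3 rose and 4 fell with CDDO-Me, with a median over the list of -0.18 on the log2 scale. Groups did not overlap for 20 of the 38, or 52.6%, beside 31.8% of all tested genes. CDDO-Me lay below DMSO in 16 of the 38 and above in 4, beside 16.3% and 15.5% of all tested genes. These overlaps are of values as counted, with the GC trend of the libraries left in. CTSH, the gene of cathepsin H, fell most, with 41.5 ± 3.78 CPM with CDDO-Me, 90.05 ± 6.98 CPM with PRL-295 and 109.9 ± 13.5 CPM with DMSO (adjusted p = 0.000173 for CDDO-Me). It also differed between the compounds, at 1.12 for PRL-295 over CDDO-Me (adjusted p = 0.00239). The carboxypeptidase gene CTSA fell to 0.582 of its DMSO level with CDDO-Me (adjusted p = 0.00451), while GLA, the gene of alpha-galactosidase A, and TPP1, a peptidase gene, rose by 0.79 and 0.66 (adjusted p = 0.0136 and 0.0157). GLA was the only hydrolase gene of this list past the threshold with PRL-295, at 1.01 (adjusted p = 0.0185). Of 23 genes of the lysosomal membrane and transport, LAMP3 fell with both compounds, at 8.07 ± 0.963 CPM with CDDO-Me, 7.89 ± 1.49 CPM with PRL-295 and 17.9 ± 1.82 CPM with DMSO (adjusted p = 0.00989 and 0.0352). Of 17 genes of the proton pump that acidifies lysosomes, ATP6V1D and ATP6V0A1 rose and ATP6V0E2 fell with CDDO-Me, at 0.71, 0.43 and -0.83 (adjusted p = 0.032, 0.0455 and 0.01). The calls of DDIT4, CTSA, CTSH and ATP6V0E2 for CDDO-Me held with each of the 9 libraries left out in turn. With PRL-295, groups did not overlap for 11 of the 17 pump genes, or 64.7%, beside 27.2% of all tested genes, also as counted. PRL-295 lay above DMSO in 9 of the 17 and below in 2, beside 13.5% and 13.7% of all tested genes, with none past the threshold. Of the 20 genes of these lists called for CDDO-Me, 11 were also past the threshold with the trend on GC content and length removed, among them SH3GLB1 at 0.48 (adjusted p = 0.0421) and CTSH at -1.22 (adjusted p = 2.69e-05). The 9 that were not included BNIP3L at 0.34 (adjusted p = 0.211), PRKAA1 at 0.37 (adjusted p = 0.279) and PRKAB2 at 0.40 (adjusted p = 0.117). Among the falls they included TEX264 at -0.42 (adjusted p = 0.105), MLST8 at -0.28 (adjusted p = 0.108) and LAMTOR1 at -0.29 (adjusted p = 0.122). GLA and LAMP3 were past it for PRL-295 as well, at 0.87 and -1.41 (adjusted p = 0.000675 and 0.00892). As counted, 14 of the 20 were not past the threshold without CDDO-Me 2, 14 without DMSO 1, 16 without DMSO 2 and 14 without DMSO 3. For PRL-295, GLA was not past it without PRL-295 2, PRL-295 3, DMSO 1 or DMSO 2 (adjusted p up to 0.125), and LAMP3 was past it only without CDDO-Me 1 or CDDO-Me 2 (adjusted p up to 0.193 without another library). Between the compounds 4 were called, BNIP3L, PHB2, CTSA and CTSH, beside 1.59% of all tested genes. With the trend removed, PRL-295 over CDDO-Me was -0.69, 0.38, 0.73 and 1.05 (adjusted p = 0.0284, 0.033, 0.0118 and 0.000313). As counted, with a library left out, BNIP3L and PHB2 were each not past the threshold in 8 of 9 fits, CTSA in 2 and CTSH in 0.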

How the data were processed

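RNA was sequenced in 9 HaCaT libraries, 3 per group. Per the labels, STAR 2.5 aligned the read pairs and HTSeq 0.6.1 made the counts, on hg38; the annotation release and strand setting are not given in the sources used here. The deposited counts are not normalized. Per the labels, the authors made FPKM from read count and gene length, and 100% of values above 0 matched count over length over library total within 0.1%. GC content and overlaps came from a GENCODE annotation of the same build. Of the members, ATG5, ATG9A and CTSD have other coordinates there than in the count table.

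Counts were tested with edgeR 4.0.16 (R 4.3.3) by the quasi-likelihood test, with filterByExpr by group, TMM scaling and 1 model for the 9 libraries. P-values were adjusted by Benjamini-Hochberg over all 16239 tested genes, with a threshold of 0.05. The method was tried on counts simulated without a GC trend in the libraries, so that trial does not cover this feature of the data. CPM are TMM-scaled.

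The members and lists were chosen with earlier results of these data known. All 40 members are named, with values by library for those called or with groups that do not overlap; of other lists, up to 4 called genes with the largest change are named, and LAMTOR1 was added after its values were seen. Of 231 symbols, 231 matched, 1 through an older name.

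Alternatives were DESeq2 1.42.0, other scalings and filters, limma 3.58.1 on log2 FPKM plus 1 or 0.1, a block for replicate numbers, 6 libraries only, leaving out each library, and removal of a spline trend (5 degrees of freedom) on GC content and gene length from each library, fitted over genes with a mean above 1 CPM.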

Additional observations from a re-analysis of the deposited data

How the results depend on the processing

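Each of the 6 counts of calls was recomputed under 21 alternatives, and no result reversed its sign while past the threshold. With CDDO-Me against DMSO, the count over all genes was 2518 with DESeq2, 2509 with no filter (1676 higher, 833 lower), 864 with the replicate block and 724 (481 higher, 243 lower) with the GC trend taken over all tested genes, an alternative chosen after seeing the data. It ran from 400 to 2803 with a library left out, and limma on log2(FPKM + 1) gave 560 higher and 891 lower. The members' count was 3 with the replicate block and GC correction together, and 0 to 10 with a library left out. It was 4 with limma at either added value, without PIK3C3 and TAX1BP1. DESeq2 gave 7, adding ATG4A, and 6 libraries only gave 7, adding RB1CC1. No filter also gave 7, adding RB1CC1 and LAMP2, without CTSB. With PRL-295 against DMSO, all genes gave 539 with DESeq2, 825 with no filter, 60 with the replicate block, 650 with 6 libraries only, 246 with the GC correction and 206 with both, and 33 to 589 with a library left out. The members' count was 3 with DESeq2, no filter or the GC correction, 4 with 6 libraries only, 2 (MAP1LC3B and CTSL, without TFE3) with the GC correction in a replicate block or over all genes, and 0 to 3 with a library left out. With PRL-295 against CDDO-Me, all genes gave 897 with DESeq2, 1250 with no filter, 156 with the replicate block, 45 with 6 libraries only, 575 with the GC correction and 539 with both, and 60 to 285 with a library left out; 3 members were called with no filter (GABARAPL1 higher, RB1CC1 and TAX1BP1 lower with PRL-295) and 0 otherwise. The cause of these shifts was not tested.

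Deviations from the group means had correlations from -0.137 to 0.1041 between libraries with the same replicate number. The GC trend of each library also enters these deviations, so the check cannot exclude that the numbers pair libraries. With the replicate block, 5 members were called for CDDO-Me, without TAX1BP1. GABARAP and MAP1LC3A had at most 6 and 45 counts in a library, which limits the precision of their values.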
